A study of Mus musculus with 12 samples.

Results

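The genes described here encode 8 proteins of the cytosol that detect foreign or misplaced RNA and DNA, or pass the signal on: Ddx58 (RIG-I), Ifih1 (MDA5), Dhx58 (LGP2), Mavs, Zbp1, Mb21d1 (cGAS), Tmem173 (STING) and Eif2ak2 (PKR). They were taken by name from a table of 24421 gene symbols, and all 8 were found there and passed the minimum level for testing, as did 10899 genes in all. The cells were RAW 264.7, a mouse macrophage line from BALB/c mice, either wild type (WT) or Parp14 -/- (KO). WT cells were untreated, treated with lipopolysaccharide (LPS), with a Jak inhibitor alone, or with LPS plus the Jak inhibitor. KO cells were untreated or treated with LPS. LPS treatment lasted 2 h, and the sample titles give no time for the inhibitor. Each of the 6 groups had 2 libraries, with none of KO cells with the inhibitor analysed here. LPS comes from the outer membrane of bacteria and acts through TLR4, and Parp14 encodes an ADP-ribosyltransferase. The sources used here state neither the inhibitor's name, nor the doses, nor how many clones the KO cells came from.

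RIG-I and MDA5 are helicases that bind viral RNA of different kinds and signal through MAVS on the mitochondrial surface, which leads to transcription of interferon beta. LGP2 is a related helicase without the signalling domains of the other two and modulates them. cGAS binds DNA and makes a cyclic dinucleotide that activates STING, ZBP1 binds nucleic acids in the Z conformation and can start cell death, and PKR is activated by double-stranded RNA and slows translation. In macrophages LPS induces interferon beta, which acts back on the cells through the kinases Jak1 and Tyk2. This raises interferon-stimulated genes, some of which encode sensors.

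The promoters of 4 members are printed below, and that of Mb21d1 was searched but is not printed. Whether motif matches relate to the changes in level was not tested. Entries of the RefSeq promoter table (build GRCm38.p6, from 250 bases before the start of transcription to 50 after it, strand of the gene) were found for 5 of the 8 genes: Ddx58, Ifih1, Mavs, Mb21d1 (listed as Cgas) and Eif2ak2. Capitals mark matches to GAAA and GAAA with any 2 bases between them, the core of the interferon-stimulated response element, searched on both strands.
Ddx58, chr4:40239776-40240075, minus strand: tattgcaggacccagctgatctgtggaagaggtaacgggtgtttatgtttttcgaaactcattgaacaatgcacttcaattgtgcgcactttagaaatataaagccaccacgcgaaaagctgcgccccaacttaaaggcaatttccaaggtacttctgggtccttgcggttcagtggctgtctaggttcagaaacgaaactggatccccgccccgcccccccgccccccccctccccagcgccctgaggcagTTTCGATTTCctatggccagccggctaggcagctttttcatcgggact
Ifih1, chr2:62646206-62646505, minus strand: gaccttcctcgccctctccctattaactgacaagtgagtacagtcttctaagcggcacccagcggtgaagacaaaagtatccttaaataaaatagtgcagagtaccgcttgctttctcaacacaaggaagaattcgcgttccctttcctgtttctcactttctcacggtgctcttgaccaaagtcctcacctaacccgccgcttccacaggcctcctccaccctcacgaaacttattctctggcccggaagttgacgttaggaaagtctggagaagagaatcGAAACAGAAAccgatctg
Eif2ak2, chr17:78882523-78882822, minus strand: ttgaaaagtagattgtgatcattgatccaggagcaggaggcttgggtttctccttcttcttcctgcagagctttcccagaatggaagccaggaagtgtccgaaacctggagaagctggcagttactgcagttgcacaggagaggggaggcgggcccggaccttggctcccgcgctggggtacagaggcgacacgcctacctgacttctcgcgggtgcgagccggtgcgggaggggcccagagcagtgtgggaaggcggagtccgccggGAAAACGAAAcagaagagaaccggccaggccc
Mavs, chr2:131233813-131234112, plus strand: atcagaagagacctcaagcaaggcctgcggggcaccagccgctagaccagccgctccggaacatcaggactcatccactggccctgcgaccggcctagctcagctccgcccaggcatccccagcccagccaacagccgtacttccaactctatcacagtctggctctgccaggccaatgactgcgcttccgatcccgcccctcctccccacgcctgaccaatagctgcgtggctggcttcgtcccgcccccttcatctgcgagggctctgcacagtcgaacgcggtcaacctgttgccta
Ddx58, Ifih1 and Eif2ak2 each held 1 match, which began at base 3, 33 and 19 counted from the first transcribed base, and Mavs and Mb21d1 held 0. Of all 32851 promoter windows of this length 3.44% held a match. GGG and TTTCC with any 2 bases between them, a form of the kappa B site, was in none of the 5 windows and in 1.63% of all. TTCNNNGAA, the gamma-activated site, was found once, in Eif2ak2, 178 bases before the start, and in 8.30% of all windows; the matches did not overlap. A match describes the letters of the window and is not a measurement of binding.

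Reads counted in genes ranged from 35940669 to 45662896 per library. The knocked-out gene was read first: Parp14 stood at 76.4 and 99.7 CPM (counts per 1000000 reads in genes) in untreated WT libraries and at 10.0 and 11.97 CPM in untreated KO libraries, and after LPS at 315 and 419 CPM against 34.9 and 40.5 CPM. All 7 macrophage markers found in the table, among them Cd68, Csf1r and Spi1, were at 64.7 CPM or more in every library. The markers of T cells, B cells, plasmacytoid dendritic cells, neutrophils, and fibroblasts, epithelium and endothelium, 14 of them analysed here, were under 1 CPM in every library, with Cd3e, Cd3g, Ms4a1, Epcam, Krt18, Col1a2 and S100a9 at 0. Replicates shared a trend: replicate 2 was higher than replicate 1 in 6 of 6 groups for Ddx58, Ifih1, Dhx58, Zbp1, Mb21d1 and Eif2ak2, and lower in 6 of 6 for Tmem173. Separate cultures are not named in the labels, so the p-values reflect the spread of these libraries alone, which may be technical. The main fit does not model the trend that replicates shared, so that trend is part of this spread. In such bulk samples fewer cells with a transcript and less of it per cell cannot be told apart.

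In untreated WT cells the sensors differed in abundance. Per kilobase of annotated exons, PKR and cGAS were the most abundant of the 8, with Eif2ak2 at 20.1 ± 2.28 and Mb21d1 at 19.8 ± 1.21 CPM per kb (SD, n = 2), a difference within their spread. The adaptors followed, with Mavs at 15.7 ± 0.358 and Tmem173 at 12.3 ± 1.18 CPM per kb. Dhx58 at 9.58 ± 1.501 and Ddx58 at 7.28 ± 1.05 CPM per kb came next, ahead of Ifih1 at 3.20 ± 0.277 CPM per kb. Zbp1 was scarcest, at 0.452 ± 0.172 CPM per kb, from 46 and 81 reads. After LPS the order was different: Ifih1 reached 50.1 ± 2.29 CPM per kb, the highest of the 8, ahead of Eif2ak2 at 27.7 ± 1.67 CPM per kb, while Mavs stood at 4.70 ± 0.468 CPM per kb. The lengths behind these values join all annotated exons of a gene, not the transcripts these cells made.

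**Figure D1:**
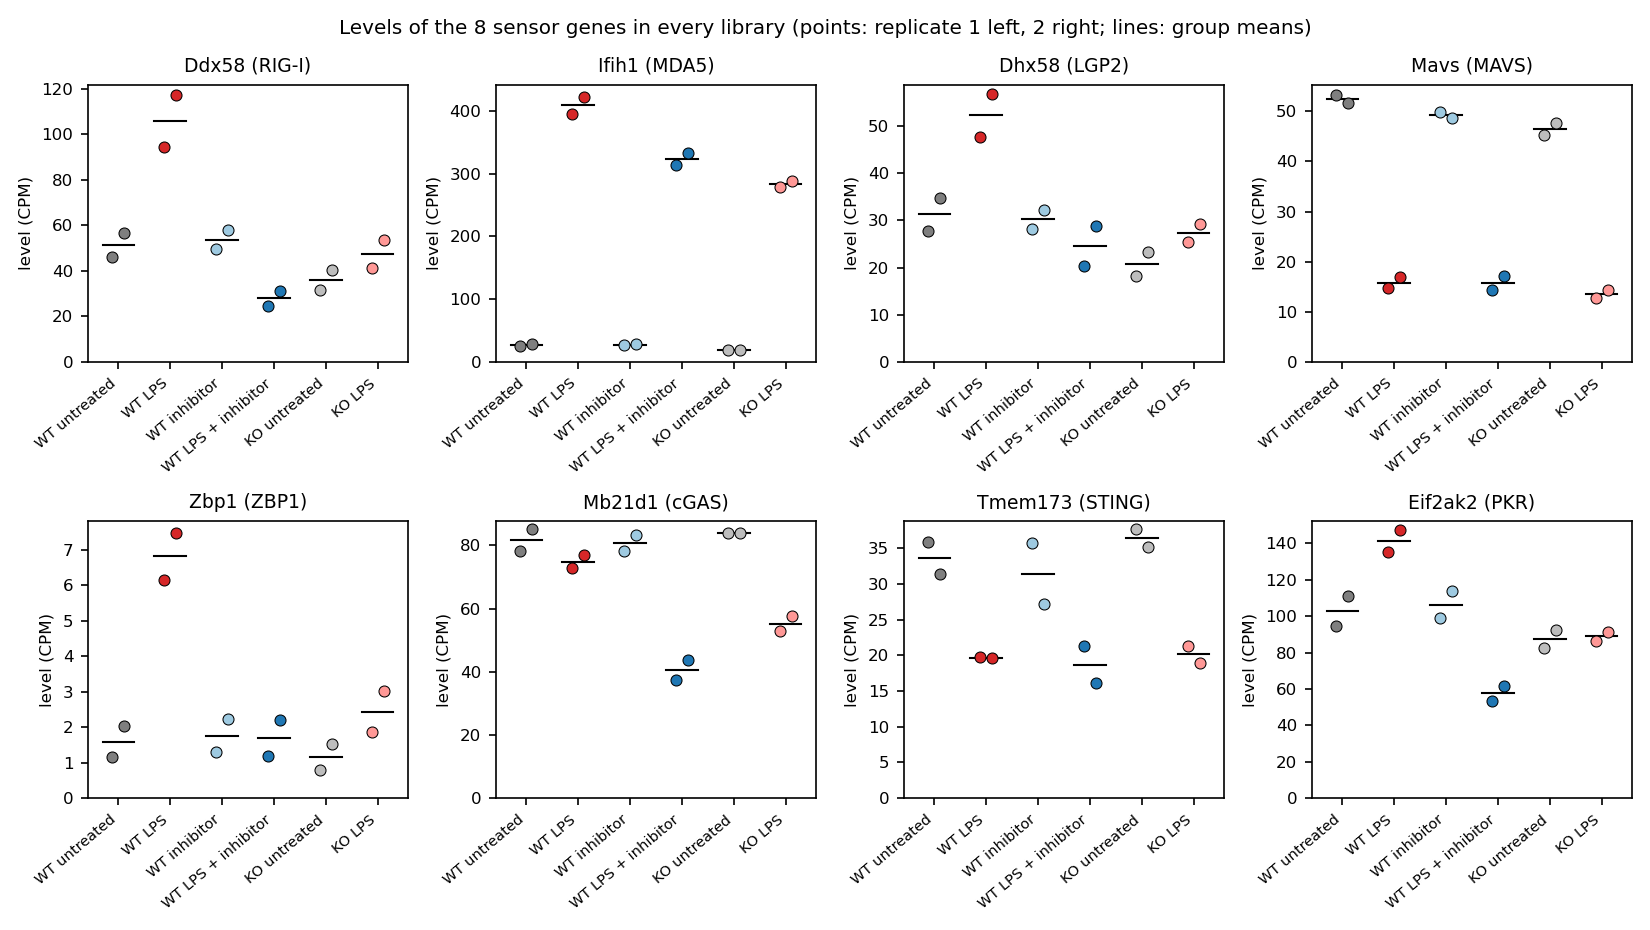
Level in CPM (vertical axes, from 0) of each of the 8 genes in the 12 libraries, by group (horizontal axes); points are libraries and lines are group means. Ifih1 is high in all 3 groups with LPS, Mavs and Tmem173 are low in the same groups, and Ddx58, Dhx58, Zbp1 and Eif2ak2 are highest in WT cells with LPS alone.

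The first comparison asked how LPS changed the sensors of WT cells. The RNA sensors and effectors rose, MDA5 far more than the rest, the adaptors MAVS and STING fell, and cGAS was not called. With limma, 5 of the 8 genes were higher and 2 lower at an adjusted p under 0.05 over all tested genes, where 13.7% of all tested genes were called higher and 53.6% lower. The median change of the 8 genes was 0.59 on the log2(CPM + 1) scale and that of all tested genes -0.30. That shift of all genes was -0.04 after rescaling by the median of ratios. The 5 and 2 calls had the same counts there, beside 26.4% and 32.5% of all tested genes.

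Ifih1 (GRCm38 chromosome 2, 62595798 to 62646255, minus strand) went from 24.6 and 27.8 CPM to 396 and 422 CPM. The libraries of the groups lay far apart, and the log2 change was 3.92 (SE 0.0702, limma adjusted p = 3.79e-10), or 15.1-fold on the CPM + 1 scale. Ddx58 (chromosome 4, 40203773 to 40239828, minus strand), the other helicase that signals through MAVS, went from 46.1 and 56.6 to 94.2 and 117 CPM, a change of 1.03 (SE 0.184, adjusted p = 0.000736). Dhx58 (chromosome 11, 100694884 to 100704271, minus strand) went from 27.9 and 34.8 to 47.8 and 56.9 CPM, a change of 0.73 (SE 0.182, adjusted p = 0.00556). Without WT_UT replicate 1 the adjusted p of Dhx58 was 0.0508 at a change of 0.57. The 95% intervals of Dhx58 (0.32 to 1.14) and Ddx58 (0.61 to 1.44) overlapped and lay below that of Ifih1 (3.76 to 4.07). Dhx58 shares 141 exon bases with the antisense gene Dhx58os, and the sources used here do not state whether counting used strand.

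Zbp1 (chromosome 2, 173206612 to 173218923, minus strand) went from 1.17 and 2.02 to 6.15 and 7.48 CPM, from 46 and 81 to 281 and 307 reads. Its change was 1.61 (SE 0.273, limma adjusted p = 0.000514), or 3.04-fold on the CPM + 1 scale. At such low levels the added 1 CPM makes the change smaller than that of the mean CPM itself, which went from 1.60 to 6.82. This holds for Zbp1 in the other comparisons too. Eif2ak2 (chromosome 17, 78852564 to 78882573, minus strand) went from 94.5 and 111 to 136 and 148 CPM, a change of 0.46 (SE 0.109, adjusted p = 0.00399). In both genes the LPS libraries lay above the untreated ones. Eif2ak2 shares 174 exon bases with the antisense gene Gm26637. PKR was the most abundant of these genes before treatment and had the smallest called rise.

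The adaptors went the other way. Mavs (chromosome 2, 131234063 to 131248025, plus strand) fell from 53.3 and 51.7 to 14.6 and 16.8 CPM, a change of -1.68 (SE 0.101, adjusted p = 5.25e-07), or 3.20-fold lower on the CPM + 1 scale. Tmem173 fell from 35.9 and 31.3 to 19.7 and 19.6 CPM, a change of -0.74 (SE 0.149, adjusted p = 0.00154). Both changes are larger than the shift of all genes, and after rescaling they were -1.40 (adjusted p = 2.5e-06) and -0.46 (adjusted p = 0.0189). Mb21d1 (chromosome 9, 78430526 to 78443237, minus strand), the DNA sensor above STING, which shares 201 exon bases with the antisense pseudogene Gm8093, was at 78.3 and 85.4 CPM untreated and 72.7 and 77.03 CPM with LPS. Its change was -0.13 (95% interval -0.32 to 0.06, adjusted p = 0.214), was called with the replicate number as a block (adjusted p = 0.0362), and was 0.16 (adjusted p = 0.156) after rescaling.

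**Figure D2:**
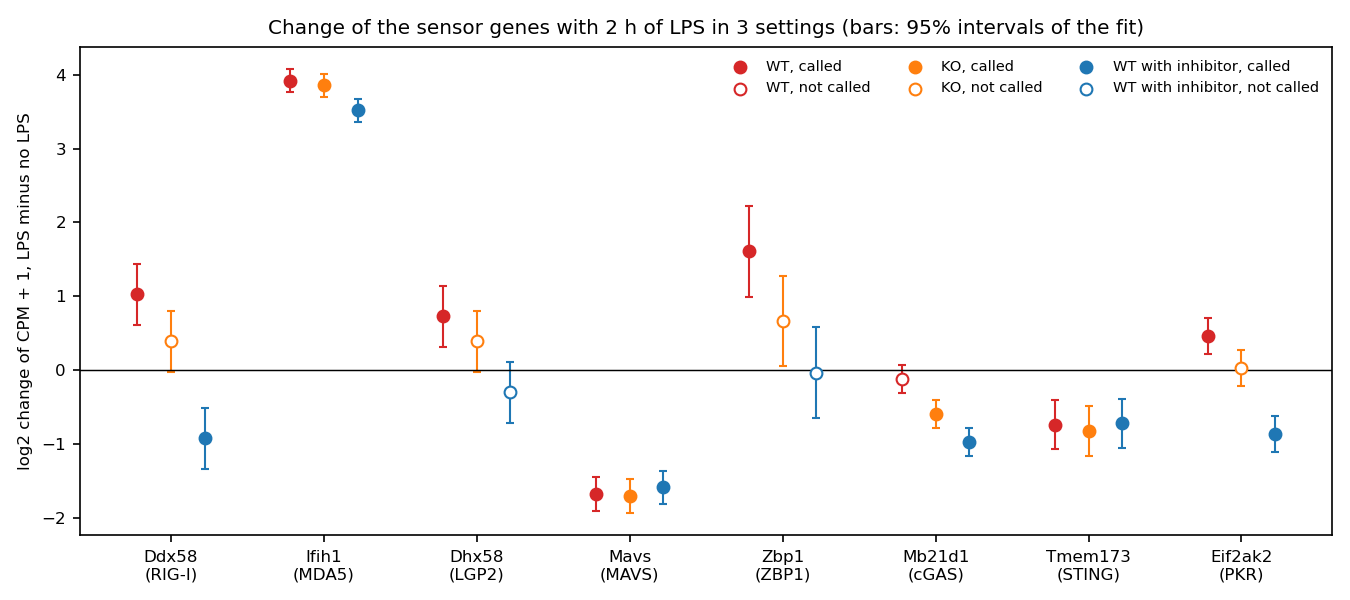
Log2 change of CPM + 1 with 2 h of LPS (vertical axis) for the 8 genes (horizontal axis) in WT cells, KO cells and WT cells with the inhibitor; bars are 95% intervals of the fit, and filled points passed an adjusted p of 0.05. The 3 points of Mavs and the 3 of Tmem173 lie close together. Those of Ifih1 run from 3.92 in WT cells to 3.52 with the inhibitor, and those of Ddx58 from 1.03 to -0.93.

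KO cells were compared with WT cells to ask how the sensors differed by genotype. Untreated, KO cells had less MDA5 transcript, and the other 7 genes were not called. Ifih1 was at 18.4 and 18.9 CPM in KO cells against 24.6 and 27.8 CPM in WT cells, a difference of -0.46 (SE 0.0702, limma adjusted p = 0.00275). This 1 call of 8, lower, stands beside 5.37% of all tested genes called lower. Ddx58 was at 31.4 and 40.3 CPM and Dhx58 at 18.3 and 23.3 CPM in untreated KO cells, below the WT libraries, at differences of -0.51 (adjusted p = 0.138) and -0.57 (adjusted p = 0.0888). With the replicate block, 4 genes were lower and 0 higher, beside 13.7% and 10.9% of all tested genes. The 4 were Ifih1, Ddx58 (limma adjusted p = 3.7e-06), Dhx58 (adjusted p = 2.3e-05) and Eif2ak2 (adjusted p = 0.00196).

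After LPS 6 of the 8 genes were lower in KO than in WT cells and 0 higher, beside 7.66% of all tested genes called lower; the 2 not called were the adaptors. The median difference of the 8 was -0.60, and that of all tested genes 0.0015. Ddx58 stood at 41.0 and 53.4 CPM in KO cells against 94.2 and 117 CPM in WT cells, with no overlap, at a difference of -1.15 (SE 0.184, limma adjusted p = 0.00278). Zbp1 was at 1.86 and 3.02 CPM against 6.15 and 7.48 CPM, a difference of -1.20 (SE 0.273, adjusted p = 0.0167). Dhx58 was at 25.3 and 29.3 CPM, a difference of -0.91 (adjusted p = 0.00904), and Eif2ak2 at 86.2 and 91.5 CPM, a difference of -0.67 (adjusted p = 0.00317). Ifih1 reached 279 and 288 CPM, a difference of -0.53 (adjusted p = 0.000975), and Mb21d1 52.8 and 57.7 CPM, a difference of -0.43 (adjusted p = 0.00814). In each of these 6 genes both KO libraries lay below both WT libraries, as they did in Mavs, which was not called. The share of all tested genes separated in this way was not counted.
The adaptors differed less: Mavs was at 12.7 and 14.4 CPM, a difference of -0.20 (95% interval -0.43 to 0.03, adjusted p = 0.261), and Tmem173 at 21.3 and 18.9 CPM, a difference of 0.03 (-0.31 to 0.36, adjusted p = 0.948). Without WT_LPS replicate 2, or without KO_LPS replicate 1, the called genes were 3, and the calls of Dhx58, Zbp1 and Mb21d1 were lost at adjusted p of 0.0626 to 0.122; without WT_LPS replicate 1 only the call of Zbp1 was lost (adjusted p = 0.0539).

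Within KO cells LPS raised MDA5 about as far as in WT cells and lowered the adaptors and cGAS. Of the 8 genes 1 was higher and 3 lower, beside 13.9% and 52.7% of all tested genes. In the main fit neither share of the 8 exceeded that of all genes, so there these calls do not set the 8 apart as a set. The median change was 0.21 for the 8 genes and -0.29 for all tested genes. With median-of-ratios scaling 0 of these calls were lost. Ifih1 rose by 3.86 (SE 0.0702, limma adjusted p = 3.97e-10), Mavs fell by 1.71 and Tmem173 fell by 0.83 on the log2 scale, and Mb21d1 fell from 83.8 and 84.0 to 52.8 and 57.7 CPM, a change of -0.60 (SE 0.0849, adjusted p = 0.000162). Ddx58 (0.39, adjusted p = 0.0887), Dhx58 (0.39, adjusted p = 0.0866), Zbp1 (0.66, adjusted p = 0.0539) and Eif2ak2 (0.02, adjusted p = 0.854) were not called. This part of the result rests on the scaling. After rescaling by the median of ratios 5 were higher and 3 lower, beside 26.7% and 33.1% of all tested genes. There both shares of the 8 exceeded those of all genes. The changes were then 0.66 for Ddx58, 0.65 for Dhx58, 0.84 for Zbp1 and 0.30 for Eif2ak2. The counts of the 8 were the same with edgeR and DESeq2. With the replicate block 4 were higher and 3 lower, beside 18.3% and 62.2% of all tested genes. Without KO_UT replicate 2 the changes were 0.56 for Ddx58 and 0.91 for Zbp1. Without KO_LPS replicate 1 they were 0.57 and 0.91.

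The difference of the LPS response between the genotypes was tested directly. None of the 8 genes passed in limma, beside 0.413% of all tested genes, and edgeR and DESeq2 called 0 of the 8. In limma 4 of the 8 had an unadjusted p under 0.05, beside 674 of the 10899 tested genes. The differences, KO minus WT, were -0.94 for Zbp1 (unadjusted p = 0.0362), -0.64 for Ddx58 (0.0354), -0.47 for Mb21d1 (0.00317) and -0.44 for Eif2ak2 (0.0188), with adjusted p from 0.223 to 0.722. With the replicate block these 4 were lower, at limma adjusted p of 0.000133 to 0.00175, beside 2.12% of all tested genes called lower. For Ifih1 the difference was -0.06 (95% interval -0.28 to 0.16), for Mavs -0.03 (-0.35 to 0.29) and for Tmem173 -0.09 (-0.56 to 0.38).

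WT cells with LPS and the inhibitor were compared with LPS alone to ask how each level differed when Jak kinases were inhibited; this comparison and that of KO with WT cells share the WT libraries with LPS. RIG-I, PKR, ZBP1, LGP2 and cGAS were lower with the inhibitor, MDA5 was not called, and both adaptors were at the level of LPS alone within their spread. In all 5 of the 8 genes were lower and 0 higher, beside 1.04% of all tested genes called lower. Ddx58 went to 24.5 and 31.2 CPM, a difference of -1.89 from LPS alone (SE 0.184, limma adjusted p = 0.00064), and Eif2ak2 to 53.6 and 61.8 CPM, a difference of -1.28 (SE 0.109, adjusted p = 0.000261). Mb21d1, which LPS alone had left near its untreated level, went to 37.6 and 43.8 CPM, a difference of -0.87 (SE 0.0849, adjusted p = 0.00064).
Zbp1 went to 1.20 and 2.20 CPM, a difference of -1.55 (SE 0.273, adjusted p = 0.0247), and Dhx58 to 20.4 and 28.8 CPM, a difference of -1.08 (SE 0.182, adjusted p = 0.0198). These 2 calls were the less firm ones: without WT_LPS replicate 1, WT_LPS replicate 2 or WT_LPS_JAKi replicate 1 the called genes were 3, with adjusted p of 0.0669 to 0.236 for Dhx58 and 0.112 to 0.277 for Zbp1. Without a filter on low values the called genes were also 3. Ifih1 was at 314 and 332 CPM, below both libraries with LPS alone, at a difference of -0.34 (SE 0.0702, adjusted p = 0.0636), and was called with the replicate block (adjusted p = 0.000268) and with DESeq2 (adjusted p = 0.00192). Mavs (14.3 and 17.2 CPM) differed by 0.00 (95% interval -0.23 to 0.23) and Tmem173 (21.2 and 16.1 CPM) by -0.09 (-0.42 to 0.25).

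**Figure D3:**
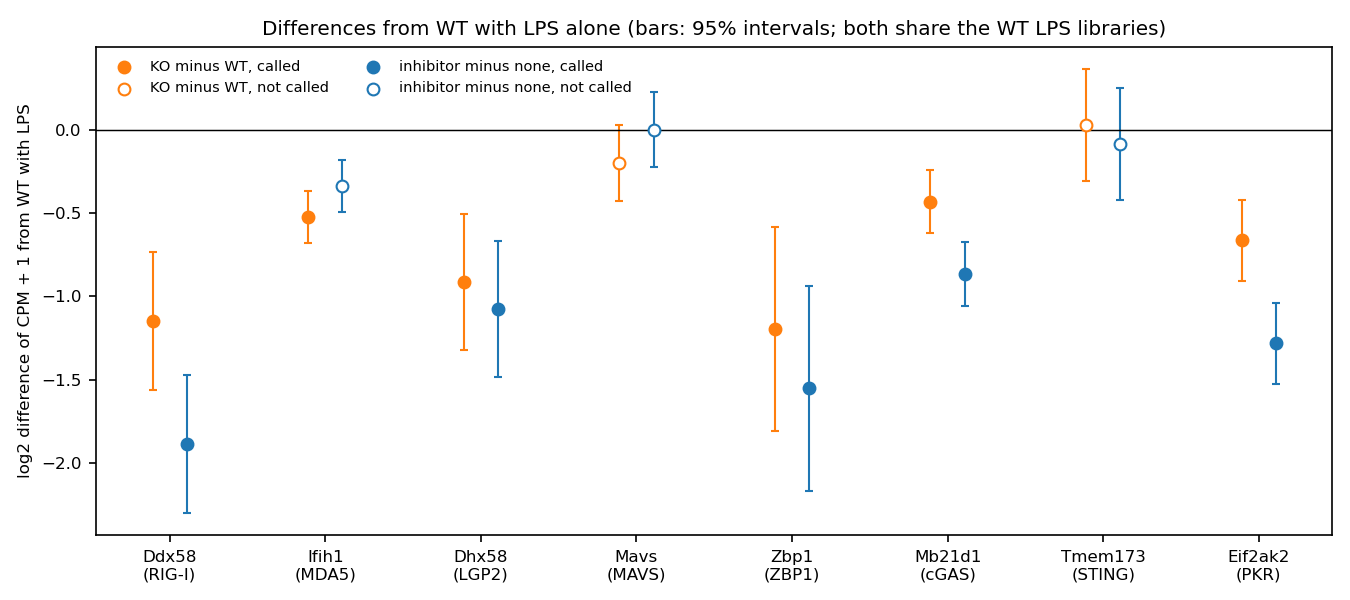
Log2 difference of CPM + 1 from WT cells with LPS alone (vertical axis) for KO cells with LPS and for WT cells with LPS and the inhibitor, by gene (horizontal axis); bars are 95% intervals, filled points passed an adjusted p of 0.05, and both series share the WT libraries with LPS. The points of Ddx58, Mb21d1 and Eif2ak2 are lower with the inhibitor (-1.89, -0.87 and -1.28) than in KO cells (-1.15, -0.43 and -0.67).

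With Jak kinases inhibited, LPS no longer raised RIG-I or PKR but lowered them. Compared with WT cells given the inhibitor alone, 1 of the 8 genes was higher and 5 lower, beside 13.5% and 50.8% of all tested genes. Ddx58 fell from 49.5 and 57.7 to 24.5 and 31.2 CPM, a change of -0.93 (SE 0.184, limma adjusted p = 0.00148), and Eif2ak2 from 98.8 and 114 to 53.6 and 61.8 CPM, a change of -0.87 (SE 0.109, adjusted p = 7.22e-05). Mb21d1 fell from 78.3 and 83.3 to 37.6 and 43.8 CPM, a change of -0.98 (SE 0.0849, adjusted p = 5.9e-06). These falls exceed the shift of all genes, -0.27, and after rescaling were -0.67, -0.61 and -0.72, with adjusted p of 0.013, 0.00139 and 9.12e-05. Ifih1 still rose, from 26.7 and 27.8 to 314 and 332 CPM, by 3.52 (SE 0.0702, adjusted p = 7.63e-10). Mavs fell by 1.59 and Tmem173 fell by 0.72, close to their changes without the inhibitor. Dhx58 (-0.30, adjusted p = 0.171) and Zbp1 (-0.03, 95% interval -0.65 to 0.58, adjusted p = 0.92) were not called. Dhx58 was called lower with the replicate block (adjusted p = 0.000953) and without WT_LPS_JAKi replicate 2 (-0.54, adjusted p = 0.0341).

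The inhibitor by itself called none of the 8 genes, 0% of all tested genes in limma; none of the 8 had an unadjusted p under 0.05, and edgeR and DESeq2 called 0 of the 8. The differences ran from -0.10 for Tmem173 to 0.09 for Zbp1. The test of the difference between the LPS response with and without the inhibitor called 3 genes, all lower, beside 0.569% of all tested genes called lower: Ddx58 (-1.95, SE 0.261, adjusted p = 0.00917), Eif2ak2 (-1.33, SE 0.155, adjusted p = 0.00396) and Mb21d1 (-0.85, SE 0.12, adjusted p = 0.0122). Zbp1 (-1.64, adjusted p = 0.178), Dhx58 (-1.03, adjusted p = 0.222) and Ifih1 (-0.40, adjusted p = 0.214) were called too with the replicate block. Under that block 1.70% of all tested genes were called lower. Dhx58 was also called with DESeq2 (adjusted p = 0.0232). Without WT_UT replicate 1, or without WT_LPS replicate 2, 1 gene was called: Ddx58 had adjusted p of 0.0582 and 0.0564 and Mb21d1 of 0.0889 and 0.0801, and Mb21d1 was also lost without WT_JAKi replicate 2 (adjusted p = 0.0691). For Mavs (0.09, 95% interval -0.23 to 0.41) and Tmem173 (0.02, -0.46 to 0.49) the LPS responses were not shown to differ.

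KO cells with LPS and LPS-treated WT cells with the inhibitor were also compared with each other. RIG-I, PKR and cGAS were higher in the KO cells: Ddx58 by 0.74 (SE 0.184, limma adjusted p = 0.0273), Eif2ak2 by 0.62 (SE 0.109, adjusted p = 0.00512) and Mb21d1 by 0.43 (SE 0.0849, adjusted p = 0.00862). These 3 calls, all higher, stand beside 6.50% of all tested genes called higher. For the other genes the differences were -0.19 for Ifih1 (adjusted p = 0.123), 0.16 for Dhx58 (95% interval -0.25 to 0.57), 0.35 for Zbp1 (-0.26 to 0.97), -0.20 for Mavs (adjusted p = 0.254) and 0.11 for Tmem173 (-0.22 to 0.45). With the replicate block Zbp1 (limma adjusted p = 0.014) was called higher too and Ifih1 (adjusted p = 0.00583) lower. That made 4 higher and 1 lower, beside 14.8% and 18.3% of all tested genes. The deposited scaling also called Ifih1 lower (adjusted p = 0.0141). Without WT_LPS_JAKi replicate 1, or without KO_LPS replicate 2, 1 gene was called, Eif2ak2; Ddx58 had adjusted p of 0.179 and 0.177 and Mb21d1 of 0.0627 and 0.0717.

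The ratio of MDA5 to RIG-I reads within a library does not depend on the scaling between libraries. It was 0.533 and 0.491 in untreated WT libraries, 0.540 and 0.482 with the inhibitor alone and 0.586 and 0.469 in untreated KO libraries. After LPS it was 4.20 and 3.60 in WT cells, 6.81 and 5.39 in KO cells and 12.8 and 10.7 in WT cells with the inhibitor. The 3 groups with LPS did not overlap with each other, whereas the 3 without LPS did.

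**Figure D4:**
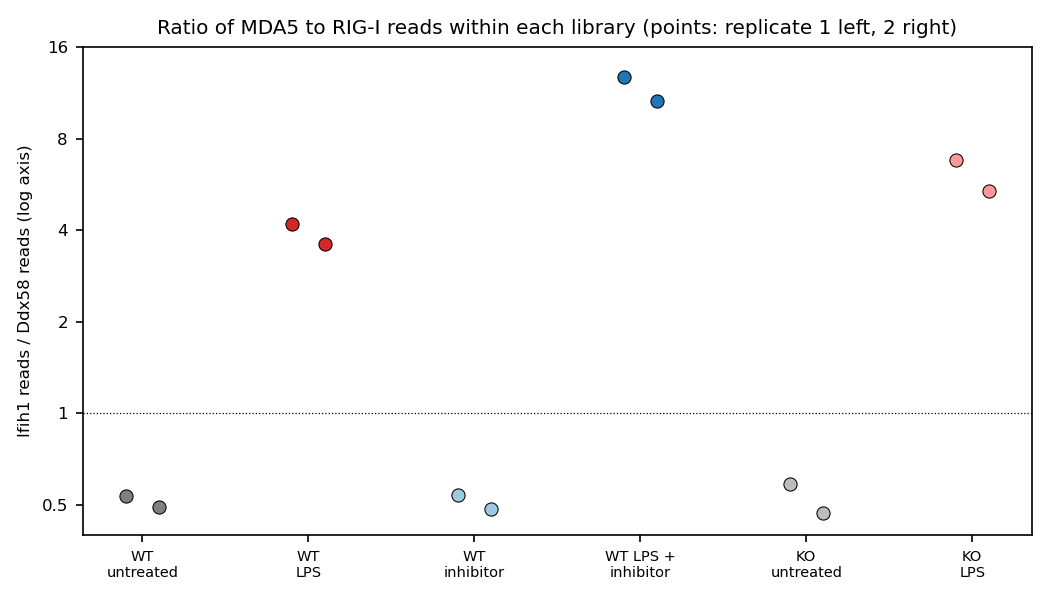
Reads of Ifih1 divided by reads of Ddx58 in the same library (vertical log axis) for the 6 groups (horizontal axis); points are single libraries. The ratio is under 1 in all 6 libraries without LPS and runs from 3.60 to 12.8 in the 6 with LPS.

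Ordered by level over all 6 groups, the genes fell into different sequences. Ifih1 went from WT with LPS through WT with LPS and inhibitor and KO with LPS to the 3 groups without LPS, and of neighbours in that order only WT with the inhibitor and untreated WT overlapped. Ddx58 and Eif2ak2 were highest in WT with LPS and lowest in WT with LPS and inhibitor. Of neighbours in their order, WT with the inhibitor and untreated WT overlapped in both genes. Untreated WT and KO with LPS also overlapped in Ddx58, and KO with LPS and untreated KO in Eif2ak2. In Dhx58 and Zbp1 WT with LPS stood above all other groups, and the neighbours below it in the order overlapped in every case. In Mavs and Tmem173 the 3 groups without LPS lay above the 3 with LPS. Mb21d1 was at 72.7 to 85.4 CPM in 4 groups, lower in KO with LPS and lowest in WT with LPS and inhibitor.

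Across the 12 libraries, which share treatments and replicate trends, the 8 profiles split in the same way. The Pearson r of log2(CPM + 1) was 0.94 between Ddx58 and Eif2ak2 and 0.93 between Ddx58 and Dhx58, but 0.22 between Ddx58 and Ifih1, and -0.97 between Ifih1 and Mavs. Of 9217 other genes considered, those most like Ddx58 were Usp18 (r = 0.988), the protease that removes ISG15, Cmpk2 (0.975) and Dtx3l (0.966). Those most like Dhx58 were Ifi44 (0.977), the interferon regulatory factor Irf7 (0.973) and Usp18 (0.954). Eif2ak2 ran with Trafd1 (0.988), Trim30a (0.984) and the GTPase gene Igtp (0.958), and Zbp1 with Tor3a (0.984), Rtp4 (0.978) and Ifi35 (0.972). Usp18, the closest to Ddx58, had 31.9 and 45.2 CPM in untreated WT cells, 98.2 and 117 CPM with LPS and 18.0 and 23.2 CPM with LPS and inhibitor.
The genes most like Ifih1 were others: Slfn2 (0.997), Cflar, an inhibitor of caspase-8 (0.997), and Nod2, a sensor of bacterial cell wall fragments (0.997). Nod2 went from 4.82 and 4.32 to 55.8 and 69.5 CPM with LPS and stood at 54.3 and 58.8 CPM with LPS and inhibitor. Mavs was most like Kdm2b, Pisd-ps1 and Lpar5 (0.998 each), and Tmem173 like Paqr4 (0.983), Alox5ap, which presents arachidonic acid to 5-lipoxygenase (0.981), and Agpat2 (0.981). Mb21d1 ran with the centriole gene Sass6 (0.991), the peptide transporter Tap1 (0.970) and Pml (0.969).

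Genes that act with the sensors were followed in 6 lists, whose median changes with LPS in WT cells were 0.07, -0.18, -0.22, -0.21, -0.42 and -0.13 in the order given here, beside -0.30 for all tested genes. Of their 78 tested members together 17 (21.8%) were higher and 35 (44.9%) lower, beside 13.7% and 53.6% of all tested genes; after rescaling they were 33 (42.3%) and 18 (23.1%), beside 26.4% and 32.5%. Single lists are small, and their counts are given only as a description. Downstream kinases, adaptors and transcription factors had 14 tested members, 5 of them higher after LPS in WT cells and 4 lower (after rescaling 10 and 2). Ikbke, the inducible kinase related to TBK1, rose by 2.89 (SE 0.0825, limma adjusted p = 5.14e-09) and Irf7 by 1.33 (SE 0.269, adjusted p = 0.00155). Regulators of RIG-I, MDA5 and MAVS numbered 16 tested, 1 higher and 8 lower (after rescaling 5 and 4), with the deubiquitinase gene Tnfaip3 at 5.40 and Trim65, a ubiquitin ligase for MDA5, at -2.75. Trim65 went from 9.58 and 8.57 to 0.46 and 0.536 CPM while Ifih1 itself rose.

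Partners of cGAS and STING numbered 15 tested, 3 higher and 8 lower with LPS in WT cells (after rescaling 6 and 4). Beside this and the following lists, 13.7% of all tested genes were higher and 53.6% lower (after rescaling 26.4% and 32.5%). The DNA exonuclease gene Trex1 rose by 2.22 (SE 0.0762, limma adjusted p = 1.52e-08) and Rhbdf2 by 1.72. Partners of ZBP1 in cell death numbered 5, 0 higher and 3 lower (after rescaling 1 and 2), with Fadd at -1.17 and Ripk1 at -0.70. The PKR list numbered 10, 2 higher and 5 lower (3 and 3): Ppp1r15a, a subunit of the phosphatase that reverses PKR's mark on eIF2 alpha, rose by 3.91, and the related kinase gene Eif2ak3 fell by 1.49. Other proteins reported to bind nucleic acids numbered 18, 6 higher and 7 lower (8 and 3), with Ifi204 at 1.58 and the DNA repair gene Rad50 at -1.24.

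Between KO and WT cells after LPS, 11 of the 78 tested partners (14.1%) were called, near the 13.9% of all tested genes. Of them 4 were higher and 7 lower. Irf7 (-1.17, adjusted p = 0.0171 in limma), the helicase gene Ddx60 (-1.17, adjusted p = 0.000126), Ifi204 (-0.90), Mlkl (-0.63), Trex1 (-0.55) and Samhd1 (-0.38) were lower in KO cells. Ripk3 (0.66), Tbkbp1 (0.53) and Dnajc3 (0.34) were higher. Azi2 (-0.25, lower) and Xrcc5 (0.65, higher) were called as well and are named only to complete the count. Of the 16 regulators of RIG-I, MDA5 and MAVS 0 were called in limma. With the replicate block 1 of these 16 was higher and 5 lower, and over the 6 lists 9 were higher and 20 lower (37.2%, beside 31.5% of all tested genes). With LPS and the inhibitor against LPS alone, 0 were higher and 5 lower (6.41%, beside 1.04% of all tested genes called lower): Irf7 (-1.78, adjusted p = 0.01), Ifi204 (-0.995), Trim25 (-0.95), a ubiquitin ligase for RIG-I, Ddx60 (-0.73) and Trex1 (-0.48). Under the replicate block the partners called were 10, all lower (12.8%, beside 2.41% of all tested genes called lower).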

How the data were processed

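RNA-seq of 12 libraries was analysed, 2 in each of 6 groups taken from the sample labels. Reads were aligned with TopHat2 2.1.0, counted with HTSeq and scaled with edgeR on mm10 (GRCm38), per the submitters' processing notes; the sources used here state neither strand setting nor annotation. The authors deposited CPM values, counts per 1000000 over all counted reads, including 5 HTSeq summary lines that name no gene: reads without unique alignment were 28.6 to 34.9%, reads in no gene 5.00 to 6.37% and ambiguous reads 0.994 to 1.13%. Counted alignments were 57072275 to 74239012, of which 58.9 to 64.1% lay in genes. The values came out as whole reads, within 0.02 reads, for 100% of values above 0. There were 4 columns of per-sample values that match no sample and were not used, and 27 symbols had been turned into dates.

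CPM was rescaled to reads in genes and tested as log2(CPM + 1) with limma 3.58.1 (R 4.3.3, trend), with 1 fit of 6 group means (6 residual and 3.54 prior degrees of freedom) over genes that reached 1 CPM in 2 or more libraries, and Benjamini-Hochberg adjustment over 10899 genes at 0.05. The model was tested on simulated data. Those libraries were drawn independently, without a shared replicate trend, so that test does not bear on leaving out the block. Exon lengths and positions came from GENCODE, and promoters from RefSeq. Other settings tried were no filter, a minimum of 5 CPM, 0.25 as pseudocount, median-of-ratios and the deposited scaling, a replicate block, only the groups compared, edgeR 4.0.16 and DESeq2 1.42.0 on recovered reads, and each library left out.

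Replicate numbers were checked for pairing: for each of the 15 pairs of groups the differences of replicate 1 from 2 were correlated (0.468 to 0.737, median 0.622), so same-numbered libraries deviated together, although the labels name no shared day. The main fit has no block, and the fit with the replicate block is given where it changes a call. The members and lists were chosen with earlier results of these data known. Named besides the 8 genes are Parp14, the 2 called genes of each list with the largest change in 3 comparisons, and the 3 genes most alike by Pearson r among genes with a mean of at least 5 CPM in their highest group, without predicted genes. Besides the markers given, 1 further marker gene is not reported here.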

Additional observations from a re-analysis of the deposited data

Results flagged for a closer look

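The LPS response of 3 genes differed between WT cells with and without the Jak inhibitor, by limma's test of that difference. It was -1.95 for Ddx58 (log2 scale, response with the inhibitor minus response without, adjusted p = 0.00917), where LPS gave 1.03 without the inhibitor and -0.93 with it. For Eif2ak2 it was -1.33 (adjusted p = 0.00396), from 0.46 to -0.87. For Mb21d1 it was -0.85 (adjusted p = 0.0122), from -0.13, which was not called, to -0.98. Inhibitor and control libraries of each treatment did not overlap after LPS and did overlap without it in these 3 genes. The same held for Ifih1, Dhx58 and Zbp1, and the share of all tested genes with this pattern was not counted.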

How the results depend on the processing

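With the replicate block the called genes were 4 for KO against WT untreated, 7 for LPS in KO cells, 4 for genotype by LPS, 6 for inhibitor by LPS and 5 for KO with LPS against WT with LPS and inhibitor. The shares of all tested genes called there were, in the same order, 24.6%, 80.5%, 3.79%, 2.92% and 33.1%. Over all genes the block moved the calls from 1055 to 2685, 1510 to 3438 (KO against WT with LPS), 45 to 413, 121 to 446 (inhibitor in LPS), 64 to 318, 1451 to 3605 and, for the inhibitor alone, 0 to 4. LPS in KO cells had 8 called genes with median-of-ratios scaling, edgeR and DESeq2; KO against WT untreated had 2 with DESeq2 and with the deposited scaling; the inhibitor in LPS had 3 without a filter. Leaving out 1 library gave 6 to 7 calls for LPS in WT, 4 to 6 for LPS in KO, 1 for KO untreated, 3 to 6 for KO with LPS, 0 for genotype by LPS, 3 to 5 for the inhibitor in LPS, 6 to 7 for LPS with inhibitor, 0 for the inhibitor alone, 1 to 3 for inhibitor by LPS and 1 to 3 for KO with LPS against inhibited WT. The cause was not tested.

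For all genes, genotype by LPS had 19 calls at pseudocount 0.25, 76 without a filter, 30 at 5 CPM, 10 with edgeR and 80 with DESeq2, and inhibitor by LPS had 118 with DESeq2. With LPS in WT 1493 genes were higher and 5839 lower, or 2873 and 3537 after rescaling; in KO cells 1518 and 5748, or 2911 and 3608; with inhibitor 1466 and 5535, or 2872 and 3541. With the deposited scaling KO against WT gave 324 and 1026 untreated (470 and 585 before), 514 and 1082 with LPS (675 and 835), and 484 and 1572 against inhibited WT (708 and 743).

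Of 1104 alternative values of the members 47 changed sign, 0 of them at an adjusted p under 0.05 before or after. With median of ratios, edgeR and DESeq2, in this order, Mb21d1 with LPS in WT was 0.16, 0.18 and 0.21, Zbp1 for LPS with inhibitor 0.13, 0.24 and 0.25, and Tmem173 for inhibitor by LPS -0.0098, -0.0045 and -0.012. Dhx58 for LPS with inhibitor was 0.0067 with DESeq2. With the deposited scaling Mavs was 0.0091 for genotype by LPS and 0.035 for the inhibitor in LPS, and Tmem173 -0.029 and Mb21d1 -0.051 for KO against WT with LPS and untreated. Over the libraries left out, sign changes lay in these ranges. Inhibitor alone: Ddx58 -0.080 to 0.21, Dhx58 -0.20 to 0.11, Eif2ak2 -0.066 to 0.16, Ifih1 -0.024 to 0.15, Mb21d1 -0.079 to 0.044, Tmem173 -0.29 to 0.088, Zbp1 -0.16 to 0.34. Genotype by LPS: Ifih1 -0.15 to 0.024, Mavs -0.12 to 0.066, Tmem173 -0.18 to 0.0065. Inhibitor by LPS: Mavs -0.035 to 0.21, Tmem173 -0.17 to 0.21. Inhibitor in LPS: Mavs -0.12 to 0.12, Tmem173 -0.28 to 0.10. KO against WT: Tmem173 with LPS -0.056 to 0.11, Mb21d1 untreated -0.025 to 0.098. KO with LPS against inhibited WT: Dhx58 -0.077 to 0.40, Tmem173 -0.076 to 0.30. LPS in KO: Eif2ak2 -0.060 to 0.11. LPS with inhibitor: Zbp1 -0.30 to 0.23. Zbp1 rests on 32 to 307 reads per library.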
